A study of Mus musculus with 6 samples.

Results

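Genes for heat shock proteins and their co-chaperones were examined in microglia of WT female mice at 5 and 24 weeks of age. The list named 50 genes by symbol, from the HSP70, HSP110, HSP90, J protein, small HSP and chaperonin families, the co-chaperones that serve them and the transcription factors Hsf1 and Hsf2. Of these, 49 were found through their Ensembl identifiers among the 38924 genes of the count tables, while Hspa14 had no matching row and was not analysed here. All 49 had enough counts to be tested. The list was named for the cytosol, but 5 of the 49 encode proteins of mitochondria and 5 encode proteins of the endoplasmic reticulum (ER) or its membrane. These are also described by compartment below, but the counts by family and by class include them.

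The animals were C57BL/6 mice carrying no engineered allele and given no treatment, with 3 mice and 1 RNA-seq library of each at either age. Microglia, the resident macrophages of the brain, were pulled from dissociated whole brain, after removal of meninges and myelin, with beads against CD11b, a surface protein that other macrophages, monocytes and neutrophils also carry. The Het mice of the same study were not analysed here.

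Chaperones of the HSP70 family hold unfolded stretches of other proteins in a cycle driven by ATP. J proteins, also called HSP40, deliver the clients and start ATP hydrolysis, nucleotide exchange factors such as the HSP110 and BAG proteins release the client, and some clients are then passed on to HSP90. Some of these genes are expressed at all times in most cells, whereas others are strongly induced by HSF1, the main heat shock transcription factor, when proteins unfold under heat or other stress.

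The gene counts were 23198065 to 46434788 per library at 5 weeks and 10410625 to 13554336 at 24 weeks, and the members took 0.413% to 0.458% of them at 5 weeks and 0.383% to 0.543% at 24 weeks. The 5-week and the 24-week libraries were sequenced in separate lanes, and the effect of age cannot be told apart from that of the lane. Itgam, which encodes CD11b, had 1324 to 1737 CPM (counts scaled to a common library size with TMM factors) across the 6 libraries. The 24-week replicate 3 had 78 counts of Xist, the RNA of the inactive X chromosome in female cells, against 31677 to 59021 in the other libraries, and all 6 libraries had 0 counts on Y-linked genes. Markers of vessel cells stood higher at 24 weeks, with summed levels of 299 to 355 CPM at 5 weeks and 666 to 695 CPM at 24 weeks over 13 endothelial genes, and of 170 to 202 and 327 to 367 CPM over 10 mural cell genes. The summed level of 7 markers of border-associated macrophages was 1007 to 1337 CPM at 5 weeks and 515 to 618 CPM at 24 weeks. The markers of homeostatic microglia stood far above these over 12 genes, but their summed level was also lower at 24 weeks. It was 29603 to 33640 CPM at 5 weeks and 24954 to 27659 CPM at 24 weeks, ranges that did not overlap. RNA of other brain cells was present too. The summed level of 8 choroid plexus and ependymal markers was 5298 to 7985 CPM at 5 weeks and 4982 to 6336 CPM at 24 weeks. For 8 oligodendrocyte markers it was 1763 to 3000 and 1078 to 2939 CPM, and for 8 astrocyte markers 464 to 650 and 370 to 433 CPM.

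Between the ages, 6 of the 49 members were higher at 24 weeks, 7 were lower and 36 did not pass. A gene passed when its adjusted p was under 0.05 in edgeR's quasi-likelihood test with Benjamini-Hochberg adjustment over all 16157 genes tested, and each log2 fold change or log2 difference between the ages is 24 weeks minus 5 weeks. The higher members were 12.2% of the list, and 15.5% of all genes tested were higher. The lower members were 14.3%, and 13.3% of all genes tested were lower. The levels of both ages did not overlap for 18 members (36.7%), against 45.1% of all genes tested. These shares lie close to or under those of the genome at large, so the members as a list did not stand out by the number of calls. The median log2 fold change was -0.13 over the members and 0.0037 over all genes tested, and 31 of the 49 had a value under 0. Leaving out 1 library at a time moved the number of higher members between 3 and 8 and that of lower members between 1 and 12. The lowest of these counts came without the 24-week replicate 1 for higher members and without the 24-week replicate 2 for lower members. Both of the highest came without the 5-week replicate 3. There were 3 lower members without the 5-week replicate 1 and 4 without the 24-week replicate 3, the library low in Xist, which also left 4 higher members. The calls over all genes moved too, with 1638 to 3225 higher and 1181 to 2817 lower, against 2505 and 2141 with all libraries. Both of the highest all-gene counts again came without the 5-week replicate 3.

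**Figure D1:**
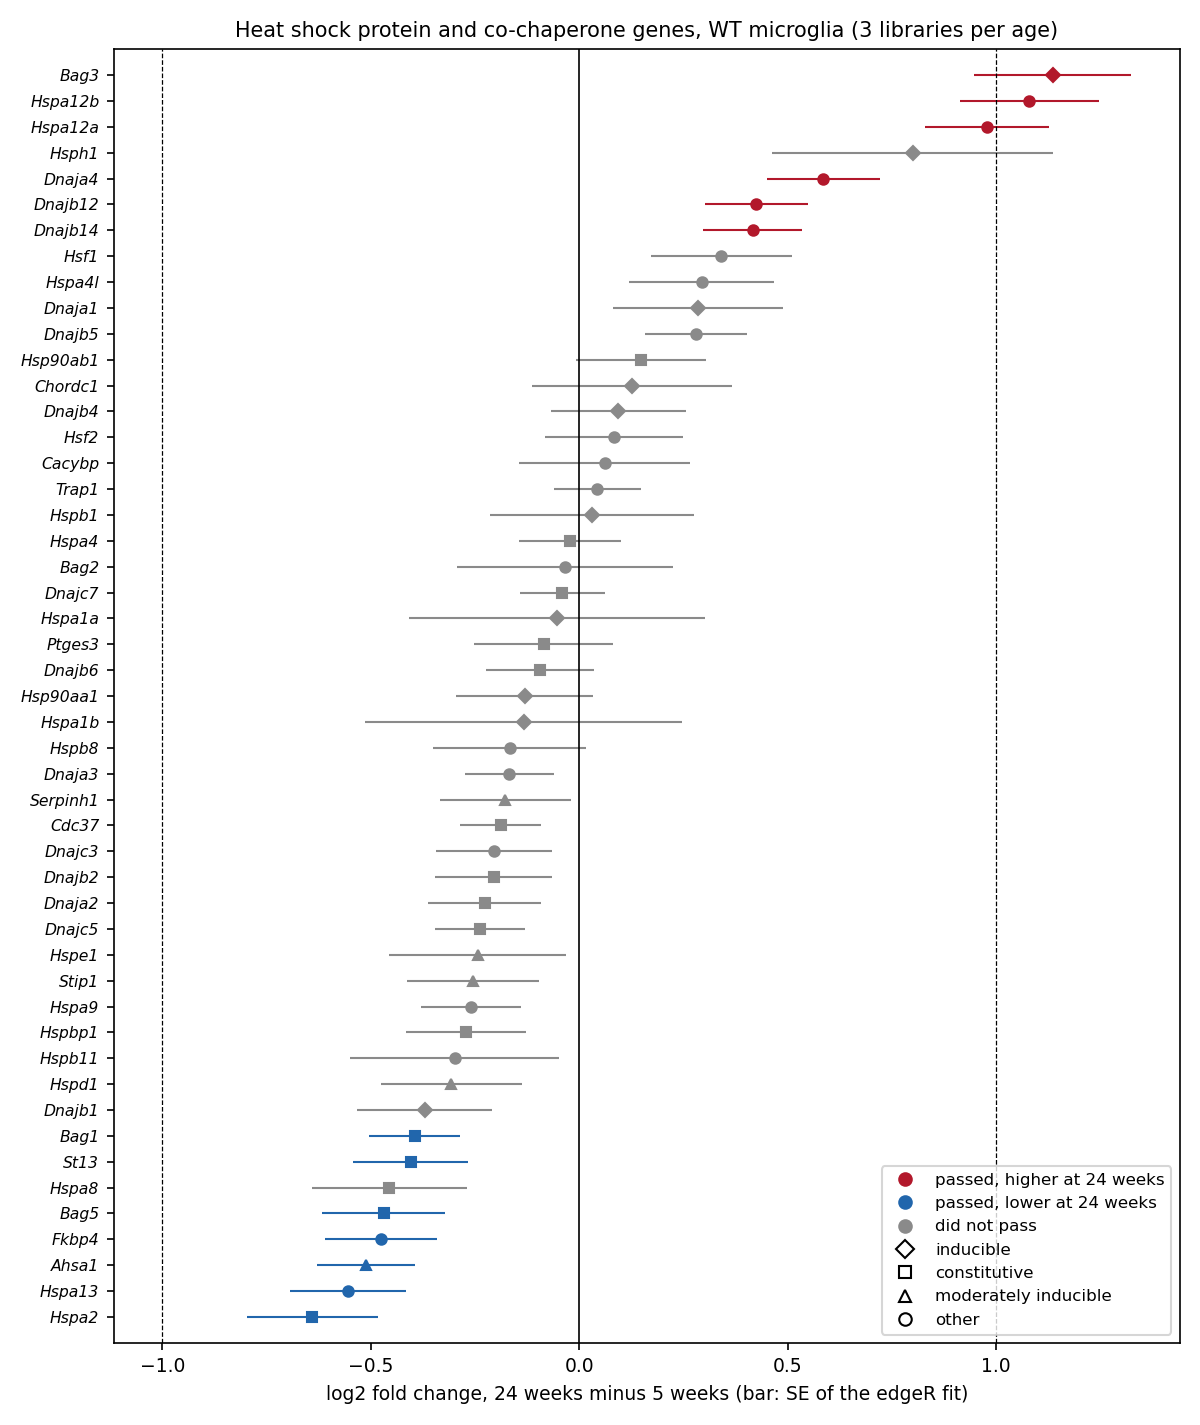
Log2 fold change of each of the 49 members, 24 weeks minus 5 weeks, from the edgeR fit, with the SE as a bar and 3 libraries per age. The 6 red points passed as higher, the 7 blue ones as lower and the grey ones in neither direction, the marker shape gives the class, and the dashed lines mark -1 and 1. The red points reach from 0.42 for Dnajb14 to 1.14 for Bag3 and the blue points from -0.39 for Bag1 to -0.64 for Hspa2.

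The stress-inducible HSP70 proteins are encoded by Hspa1a and Hspa1b, near-identical genes that lie side by side on chromosome 17. Hspa1a (ENSMUSG00000091971, GRCm38 chr17:34969190-34972156) had 248, 258 and 427 CPM in the 5-week replicates 1, 2 and 3 and 516, 167 and 216 CPM at 24 weeks. Hspa1b (ENSMUSG00000090877, chr17:34956436-34959238) had 222, 242 and 407 CPM at 5 weeks and 465, 132 and 197 CPM at 24 weeks. Both genes were highest in the 24-week replicate 1, second highest in the 5-week replicate 3 and lowest in the 24-week replicate 2, so the ages overlapped. The log2 fold changes were -0.05 for Hspa1a (SE 0.36, adjusted p = 0.924 by edgeR) and -0.13 for Hspa1b (SE 0.38, adjusted p = 0.820). These values rested on single libraries. Without the 24-week replicate 1 they were -0.71 and -0.83 (adjusted p = 0.0744 and 0.0664), and without the 5-week replicate 3 they were 0.25 and 0.19 (adjusted p = 0.631 and 0.731). Because only pairs placed at a single position were counted, any pairs that fit both copies are missing from both genes. Their levels may thus be too low, and the split of reads between the copies is uncertain. Summing the counts does not restore such pairs. Their summed counts gave 470, 500 and 834 CPM at 5 weeks and 981, 298 and 413 CPM at 24 weeks, with a log2 difference of -0.09 (SE 0.37, adjusted p = 0.873). These are bulk samples, so fewer cells of a type and less RNA per cell cannot be told apart for any gene here.

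Hspa8 encodes Hsc70, the HSP70 protein that most cells make at all times. Hspa8 (ENSMUSG00000015656, chr9:40800984-40810087) had 335, 330 and 332 CPM at 5 weeks and 333, 204 and 189 CPM at 24 weeks. The 5-week libraries lay close together (SD 2.54 CPM), while the 24-week replicate 1 was at their level and the other 24-week libraries were below all of them. The log2 fold change was -0.46 (SE 0.19), which did not pass (adjusted p = 0.088), but without the 24-week replicate 1 it was -0.76 (adjusted p = 0.0049). It was also called lower with DESeq2 (adjusted p = 0.0492), without the filter on low counts (0.0117) and with length and GC trends removed (0.0459). Hspa2, an HSP70 gene best known from male germ cells, had 11.9, 12.1 and 11.4 CPM at 5 weeks and 7.44, 6.65 and 8.69 CPM at 24 weeks. All 3 of the 24-week libraries lay below all 3 of the 5-week libraries, with a log2 difference of -0.64 (SE 0.16, adjusted p = 0.0117). Without the 24-week replicate 2 it did not pass (-0.56, adjusted p = 0.0607).

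The distant HSP70 relatives Hspa12a and Hspa12b, which have a divergent ATPase domain, both rose. Hspa12a (ENSMUSG00000025092, chr19:58795750-58943654) had 7.97, 10.7 and 10.1 CPM at 5 weeks and 17.8, 19.3 and 19.4 CPM at 24 weeks. Hspa12b (ENSMUSG00000074793, chr2:131127280-131146321) had 5.56, 7.31 and 6.54 CPM at 5 weeks and 11.97, 14.3 and 14.8 CPM at 24 weeks. In both genes every 24-week library was above every 5-week library. The log2 fold changes were 0.98 (SE 0.15, adjusted p = 0.0009 by edgeR) and 1.08 (SE 0.17, adjusted p = 0.000969), and both passed in each of the 6 fits that left out 1 library. Hspa12b is known as a gene of endothelial cells. Of the 13 endothelial markers, 11 rose, 0 fell and 2 did not pass, with a median log2 fold change of 0.89. Flt1, a receptor for vascular growth factors, had 48.3 to 54.7 CPM at 5 weeks and 207 to 227 CPM at 24 weeks. The part of the vessel cell RNA in the rise of Hspa12b and Hspa12a was not tested.

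The HSP110 proteins act as nucleotide exchange factors of HSP70. Hsph1, the stress-inducible member (ENSMUSG00000029657, chr5:149614287-149636376), had 59.0, 87.9 and 84.2 CPM at 5 weeks and 233, 80.8 and 88.2 CPM at 24 weeks. The 24-week replicate 1 alone was far above the rest, and the other 24-week libraries lay within or just above the 5-week range. The log2 fold change of 0.80 (SE 0.34) did not pass (adjusted p = 0.0985), and without the 24-week replicate 1 it was 0.13 (adjusted p = 0.643). It did pass without the 24-week replicate 2 (1.05, adjusted p = 0.0468) and without the filter on low counts (0.76, adjusted p = 0.00456). Hspa4, the constitutive member, had 202, 209 and 158 CPM at 5 weeks and 192, 185 and 183 CPM at 24 weeks. Those ages overlapped, and the log2 fold change was -0.02 (SE 0.12, adjusted p = 0.911). Hspa4l, a further HSP110 gene, also did not pass (0.29, SE 0.17, adjusted p = 0.232).

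HSP90 completes the folding of kinases, steroid receptors and many other clients. The constitutive Hsp90ab1 (ENSMUSG00000023944, chr17:45567775-45573271) had 594, 646 and 585 CPM at 5 weeks and 846, 552 and 624 CPM at 24 weeks. The inducible Hsp90aa1 (ENSMUSG00000021270, chr12:110690605-110702728) had 303, 298 and 212 CPM at 5 weeks and 285, 202 and 257 CPM at 24 weeks. The 24-week replicate 1 was again the highest library of all for Hsp90ab1, but for Hsp90aa1 it lay inside the 5-week range. The log2 fold changes were 0.15 (SE 0.16, adjusted p = 0.505) and -0.13 (SE 0.16, adjusted p = 0.583), and the ages overlapped in both.

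Of the 14 J protein genes, 3 (21.4%) were higher at 24 weeks, 0 were lower and 11 did not pass. These genes include the mitochondrial Dnaja3 and the ER genes Dnajb12, Dnajb14 and Dnajc3. Among all genes tested, 15.5% were higher and 13.3% were lower, and the J protein genes were not tested against them. The calls of the J protein genes numbered the same with DESeq2 and limma-voom. At an unadjusted p under 0.05 by edgeR, 2 of these 14 genes were lower. Dnaja4, a cytosolic J protein, had 16.0, 16.9 and 13.9 CPM at 5 weeks and 25.3, 20.6 and 24.3 CPM at 24 weeks. Dnajb12 had 45.2, 47.2 and 57.9 CPM at 5 weeks and 73.0, 64.4 and 64.5 CPM at 24 weeks. Dnajb14 had 77.9, 82.3 and 62.7 CPM at 5 weeks and 99.7, 100.3 and 97.2 CPM at 24 weeks. In all 3 genes the ages did not overlap. Dnajb12 and Dnajb14 are related proteins of the ER membrane that face the cytosol and take part in the removal of misfolded proteins from the ER. The log2 fold changes were 0.59 for Dnaja4 (SE 0.14, adjusted p = 0.00854), 0.42 for Dnajb12 (SE 0.12, adjusted p = 0.0249) and 0.42 for Dnajb14 (SE 0.12, adjusted p = 0.0231). Dnaja4 passed in 5 of the 6 fits that left out 1 library, the exception being the one without the 24-week replicate 1 (0.52, adjusted p = 0.0542). Dnajb14 did not pass without any of the 24-week replicates (adjusted p = 0.0615 to 0.0854), and Dnajb12 passed only without the 5-week replicate 3 (adjusted p = 0.054 to 0.113 in the other 5 fits). Dnajb14 also lost its call when trends on gene length and GC content were removed (0.08, adjusted p = 0.479).

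Among the inducible J proteins, Dnajb1, the main HSP40 partner of HSP70 under stress, had 123, 152 and 141 CPM at 5 weeks and 138, 86.6 and 97.8 CPM at 24 weeks. Dnaja1 had 109, 117 and 83.4 CPM at 5 weeks and 170, 90.6 and 116 CPM at 24 weeks. In both genes the 24-week replicate 1 was the highest library of its age, and the ages overlapped. Neither passed, at a log2 fold change of -0.37 for Dnajb1 (SE 0.16, adjusted p = 0.111) and 0.28 for Dnaja1 (SE 0.20, adjusted p = 0.323). Dnajb1 did pass as lower without the 24-week replicate 1 (-0.60, adjusted p = 0.0206) and without the filter on low counts (-0.41, adjusted p = 0.0267). The inducible Dnajb4 had a log2 difference of 0.09 (SE 0.16). Of the constitutive J proteins, Dnajc7, which links HSP70 with HSP90, had 172 to 195 CPM at 5 weeks and 170 to 182 CPM at 24 weeks. Dnajc5, which works at synaptic vesicles, had 190 to 204 CPM and 156 to 186 CPM, and its ages did not overlap, although it did not pass (-0.24, SE 0.11, adjusted p = 0.1196). Dnaja2, Dnajb2 and Dnajb6, the last an inhibitor of protein aggregation, had log2 fold changes of -0.23, -0.21 and -0.09, and Dnajb5, which is left without a class, had 0.28, none of which passed. Without the 5-week replicate 3, Dnaja2 passed as lower (-0.35, adjusted p = 0.0137) and Dnajb5 as higher (0.39, adjusted p = 0.011).

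The co-chaperones that act on the nucleotide cycle of HSP70 moved in both directions. Bag3 (ENSMUSG00000030847, chr7:128523616-128546981), a stress-inducible BAG protein that routes clients to autophagy, had 11.3, 14.8 and 18.2 CPM at 5 weeks and 39.7, 27.6 and 30.1 CPM at 24 weeks. Every 24-week library was above every 5-week library, and the 24-week replicate 1 was the highest. The log2 fold change was 1.14 (SE 0.19, adjusted p = 0.00144), the largest rise among the members, and it passed in each of the 6 fits that left out 1 library, at 0.96 without the 24-week replicate 1. Bag1, which couples HSP70 to the proteasome, had 63.6, 62.0 and 54.3 CPM at 5 weeks and 46.4, 43.2 and 47.2 CPM at 24 weeks. Bag5 had 30.7, 25.3 and 23.5 CPM at 5 weeks and 16.9, 18.6 and 22.1 CPM at 24 weeks. St13, or Hip, which holds HSP70 in its client-bound state, had 199, 181 and 150 CPM at 5 weeks and 155, 120 and 125 CPM at 24 weeks. Bag1 and Bag5 did not overlap between the ages, whereas for St13 the 24-week replicate 1 lay above the 5-week replicate 3. All 3 were lower at 24 weeks, by log2 fold changes of -0.39 for Bag1 (SE 0.11, adjusted p = 0.0204), -0.47 for Bag5 (SE 0.15, adjusted p = 0.0341) and -0.40 for St13 (SE 0.14, adjusted p = 0.0478). When 1 library was left out, Bag1 passed only without the 5-week replicate 2 or 3 (adjusted p = 0.0504 to 0.0913 in the other 4 fits). Bag5 did not pass without the 5-week replicate 1 or the 24-week replicate 1 or 2 (adjusted p = 0.113 to 0.150). St13 passed only without the 5-week replicate 3 or the 24-week replicate 1 (adjusted p = 0.0832 to 0.172 in the other 4 fits). With total gene counts as the only scaling none of these 3 genes passed (adjusted p = 0.0691 for Bag1, 0.0954 for Bag5 and 0.116 for St13), Bag1 was also lost with length and GC trends removed (0.141) and St13 with limma-voom (0.0513). The exchange factor Hspbp1 had 13.9 to 17.8 CPM at 5 weeks and 12.4 to 13.3 CPM at 24 weeks and did not pass (-0.27, SE 0.14, adjusted p = 0.180). Bag2, an inhibitor of the ubiquitin ligase that works with HSP70, was the lowest member per length at both ages.

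Among the 7 HSP90 co-chaperones, 2 were lower, 0 were higher and 5 did not pass, with the same numbers by DESeq2 and limma-voom and 0 higher at an unadjusted p under 0.05 by edgeR. The 2 lower genes were 28.6% of this small group. Of all genes tested, 13.3% were lower and 15.5% were higher, and the difference was not tested. Ahsa1, which stimulates the ATPase of HSP90, had 55.0, 49.99 and 50.2 CPM at 5 weeks and 40.9, 34.2 and 33.6 CPM at 24 weeks. Fkbp4, a peptidyl-prolyl isomerase that helps HSP90 with steroid receptors, had 77.7, 70.7 and 78.6 CPM at 5 weeks and 65.8, 51.3 and 46.1 CPM at 24 weeks. For both, every 24-week library was below every 5-week library. The log2 fold changes were -0.51 for Ahsa1 (SE 0.12, adjusted p = 0.00811) and -0.48 for Fkbp4 (SE 0.14, adjusted p = 0.0228). Ahsa1 passed in each of the 6 fits that left out 1 library, but Fkbp4 did not pass without the 5-week replicate 1 or the 24-week replicate 2 or 3 (adjusted p = 0.0623 to 0.0929). Cdc37, which brings kinases to HSP90, had 72.7 to 76.3 CPM at 5 weeks and 63.2 to 67.3 CPM at 24 weeks, ranges that did not overlap, but it did not pass (-0.19, SE 0.10, adjusted p = 0.171). Stip1, or Hop, which hands clients from HSP70 to HSP90, had 62.0 to 67.6 CPM at 5 weeks and 69.7, 49.2 and 43.2 CPM at 24 weeks. Its log2 fold change was -0.26 with all libraries (SE 0.16, adjusted p = 0.251) and -0.49 without the 24-week replicate 1 (adjusted p = 0.0309). Ptges3, or p23, Cacybp and the inducible Chordc1 had log2 fold changes of -0.08, 0.06 and 0.13 and did not pass, although Ptges3 was called lower without the 5-week replicate 3 (-0.26, adjusted p = 0.046).

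The 3 genes named as small HSPs, which bind unfolded proteins without ATP, and the 2 transcription factors gave 0 calls by edgeR, DESeq2 or limma-voom. At an unadjusted p under 0.05 by edgeR there were also 0 genes. Of all genes tested, 15.5% were higher and 13.3% were lower, and groups of 3 and 2 genes are too small to be set against these shares. Hspb1, the inducible small HSP, had 11.3, 10.9 and 19.8 CPM at 5 weeks and 17.4, 11.1 and 14.8 CPM at 24 weeks, with its highest library at 5 weeks. Hspb8, the small HSP that partners Bag3, had 10.6 to 15.6 CPM at 5 weeks and 10.2 to 11.96 CPM at 24 weeks, with a fitted change of -0.17 on the log2 scale (SE 0.18, adjusted p = 0.527). Thus Bag3 rose while its partner did not pass, a difference that was not itself tested. Hspb11, a small HSP by name only that serves transport in cilia, had 1.59 to 2.63 CPM across the libraries. Hsf1 had 28.0, 25.2 and 41.1 CPM at 5 weeks and 42.0, 39.1 and 38.7 CPM at 24 weeks. The 5-week replicate 3 lay among the 24-week libraries, and the log2 fold change was 0.34 (SE 0.17, adjusted p = 0.155) with that library and 0.59 (adjusted p = 0.00111) without it. Hsf2 had a log2 difference of 0.08 (SE 0.17, adjusted p = 0.740).

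Beside 15.5% of all genes tested that were higher and 13.3% that were lower, 0 of the 5 mitochondrial members passed by edgeR. None passed by DESeq2 or limma-voom or had an unadjusted p under 0.05 by edgeR, and 4 of them had a log2 fold change under 0. These were Hspa9, the mitochondrial HSP70 (-0.26, SE 0.12), Hspd1 and Hspe1, the chaperonin HSP60 and its lid HSP10 (-0.31, SE 0.17, and -0.24, SE 0.21), and the J protein Dnaja3 (-0.17, SE 0.11). Trap1, the mitochondrial HSP90, had 48.7 to 53.3 CPM at 5 weeks and 49.7 to 55.2 CPM at 24 weeks. Without the 5-week replicate 3, Hspa9 (-0.34, adjusted p = 0.0162), Hspd1 (-0.42, adjusted p = 0.0463) and the ER protein gene Dnajc3 (-0.34, adjusted p = 0.00455) passed as lower. Of the 5 ER members, Dnajb12 and Dnajb14 rose as given above, and Hspa13, an HSP70 protein of the ER, fell. Hspa13 had 95.3, 93.4 and 68.5 CPM at 5 weeks and 59.4, 52.6 and 63.0 CPM at 24 weeks. The ages did not overlap, and the log2 fold change was -0.55 (SE 0.14, adjusted p = 0.0133). Without the 24-week replicate 2 it did not pass (-0.49, adjusted p = 0.0662). Dnajc3, a J protein of the ER lumen, and Serpinh1, a chaperone of collagen, did not pass, at -0.20 (SE 0.14) and -0.18 (SE 0.16).

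Per length, in normalized CPM per kilobase of merged exons, Hsp90ab1 had the highest level of the members at both ages, with 203 at 5 weeks and 225 at 24 weeks (means of 3 libraries). Hspa1a followed with 105 and 101, Hspa1b with 104 and 94.4, Hspa8 with 77.2 and 56.3 and Hsp90aa1 with 69.0 and 63.0. By this length the means of the inducible Hspa1a and Hspa1b were above that of the constitutive Hspa8 at both ages. Bag2 had 0.614 and 0.602. With the longest transcript in place of merged exons Hspa8 had 105.2 at 5 weeks, level with Hspa1a (104.8) and Hspa1b (103.6), and 76.7 at 24 weeks, below both (101.0 and 94.4). Any pairs that fit both Hspa1a and Hspa1b were not counted, so their levels may be too low by either length.

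The members were then split into 10 inducible and 15 constitutive genes by textbook knowledge of heat shock induction, with 5 moderately inducible genes and 19 left without a class. The moderately inducible genes include the mitochondrial Hspd1 and Hspe1 and the ER gene Serpinh1. Of the inducible genes 1 was higher (Bag3), 0 were lower and 9 did not pass, and their median log2 fold change was 0.06. Of the constitutive genes 0 were higher, 4 (26.7%) were lower (Hspa2, Bag1, Bag5 and St13) and 11 did not pass, and their median was -0.23, with 14 of 15 under 0. Of all genes tested, 15.5% were higher, 13.3% were lower, and 8047 of 16157 had a log2 fold change under 0. By DESeq2 and limma-voom 5 and 3 constitutive genes were lower, and both tools gave 1 higher and 0 lower inducible genes. At an unadjusted p under 0.05 by edgeR, 1 inducible gene was lower and 0 constitutive genes were higher. All 5 moderately inducible genes had a value under 0, with a median of -0.26, and 1 of them (Ahsa1) passed. The ages did not overlap for 1 of the 10 inducible genes (10%), which was Bag3, and for 6 of the 15 constitutive genes (40%), beside 45.1% of all genes tested, and the difference between the classes was not tested. The inducible median was -0.16 without the 24-week replicate 1 and 0.22 without the 24-week replicate 2, so its sign rested on single libraries. It was also under 0 with length and GC trends removed (-0.04) and with the 5 moderately inducible genes counted in the class (-0.13), while the constitutive median stayed between -0.28 and -0.20 in the 6 fits that left out 1 library. With total gene counts as the only scaling, which moved the median of all genes to 0.10, the constitutive median was -0.14. Of the 4 lower constitutive genes, only Hspa2 passed with this scaling.

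**Figure D2:**
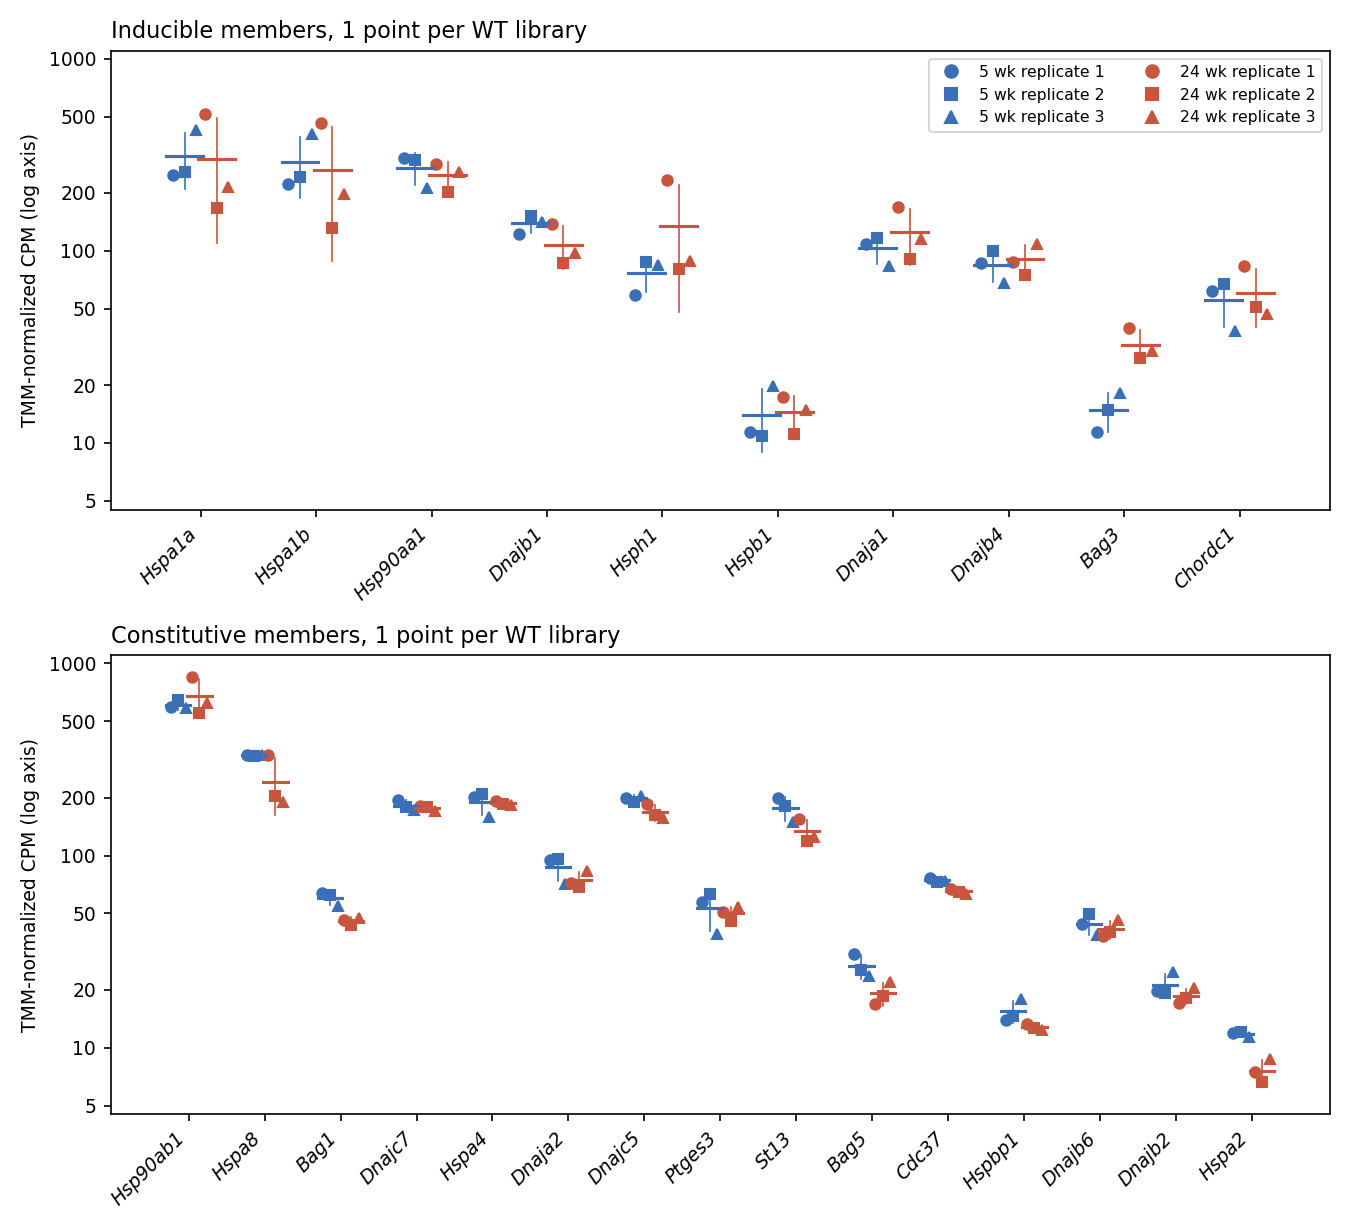
TMM-normalized CPM on a log axis for the 10 inducible members (top) and the 15 constitutive members (bottom), 1 point per library, blue for 5 weeks and red for 24 weeks, with the marker giving the replicate, the horizontal line the mean and the vertical line the SD of 3 libraries. For Hspa1a, Hspa1b and Hsph1 the red circle, 24-week replicate 1, sits at 516, 465 and 233 CPM, above the other libraries, while the points of Hspa8 at 5 weeks fall between 330 and 335 CPM.

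Libraries of the same age lay further apart in the inducible than in the constitutive members. The median SD within an age, on the log2 scale, was 0.39 for inducible and 0.17 for constitutive members, beside 0.20 for all genes tested and 0.14 for the 5494 genes whose mean log2 CPM reached 5. Hspa1b had 0.74, Hspa1a 0.68 and Hsph1 0.64, higher than 97.8%, 96.8% and 96.0% of all genes tested. Without the 24-week replicate 1, a comparison added after seeing the data, the medians were 0.30 and 0.16, so the inducible members still spread more than the constitutive ones. The genes of a class share their libraries, and no test was made of this difference.

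Within the 24-week libraries, the replicate 1 was above the mean of its age in 9 of 10 inducible members, with a median of 0.44 on the log2 scale. The replicate 2 was above in 0 of 10, with a median of -0.32, and the replicate 3 in 3 of 10, with a median of -0.10. For the constitutive members the same medians were 0.04, -0.05 and -0.03, although Hspa8 and Hsp90ab1 were 0.51 and 0.35 above the mean in the replicate 1. In direction the constitutive members were similar, with 10, 1 and 7 of 15 above the mean in the replicates 1, 2 and 3. Over all 49 members these counts were 38, 6 and 21, so the order of the replicates 1 and 2 was not particular to the inducible genes. At 5 weeks no library was high in the whole class. The replicate 3 was above its age mean by 0.50 in Hspa1a and 0.54 in Hspa1b and was also high in Hspb1 and Bag3, but it was below in Hsp90aa1, Dnaja1, Dnajb4 and Chordc1. The 13 immediate early genes, which many stimuli switch on quickly, were above the age mean in 12 of 13 cases in the 24-week replicate 1 (median 0.11) and in 13 of 13 in the 5-week replicate 3 (median 0.31). In the 24-week replicate 2, which was lowest in the inducible members, 0 of the 13 were above. Their part in the spread of the inducible members was not tested.

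**Figure D3:**
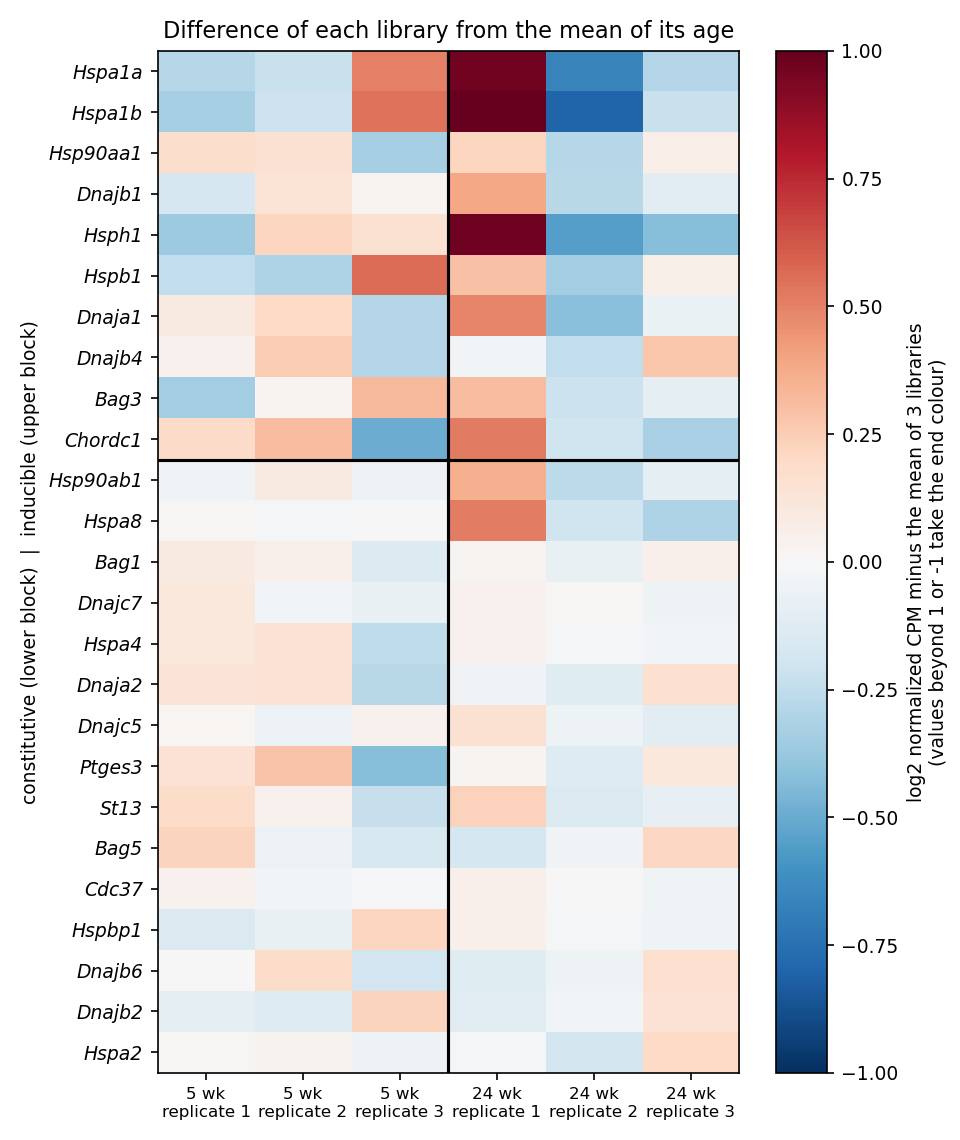
Difference of each library from the mean of its age in log2 normalized CPM, with the 10 inducible members in the upper block, the 15 constitutive members in the lower block and 1 column per library. The 24-week replicate 1 is red in 9 of the 10 inducible rows and the 24-week replicate 2 blue in all of them, while most constitutive rows are pale in every column.

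To compare an inducible gene with a constitutive relative free of depth and scaling, the log2 ratio of their per length levels was taken within each library for 6 pairs. The ratio Hspa1a to Hspa8 was 1.07, 1.14 and 1.87 on the linear scale in the 5-week replicates 1, 2 and 3 and 2.25, 1.19 and 1.65 at 24 weeks. The ratio Hsp90aa1 to Hsp90ab1 was 0.389, 0.352 and 0.277 at 5 weeks and 0.257, 0.279 and 0.314 at 24 weeks. By merged exon length the first was thus above 1 in every library, but with the longest transcript, a setting added after seeing the data, it was below 1 in 3 of the 6 libraries. Any pairs that fit both Hspa1a and Hspa1b are missing from the first ratio, which may be too low. The second was below 0.4 in every library, and both overlapped between the ages. The ratio Dnaja1 to Dnaja2 was 0.396, 0.421 and 0.403 at 5 weeks and 0.809, 0.457 and 0.480 at 24 weeks. It was the only pair whose ages did not overlap, with a difference of 0.47 on the log2 scale. Its p was 0.1 by a two-sided exact permutation test, the smallest that 3 against 3 libraries can give, and 0.6 after adjustment over the 6 pairs. The differences of the other pairs were 0.32 for Hspa1a to Hspa8, 0.22 for Hspa1b to Hspa8, -0.25 for Hsp90aa1 to Hsp90ab1, 0.65 for Hsph1 to Hspa4 and -0.30 for Dnajb1 to Dnajb6, with exact permutation p from 0.3 to 0.7.

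**Figure D4:**
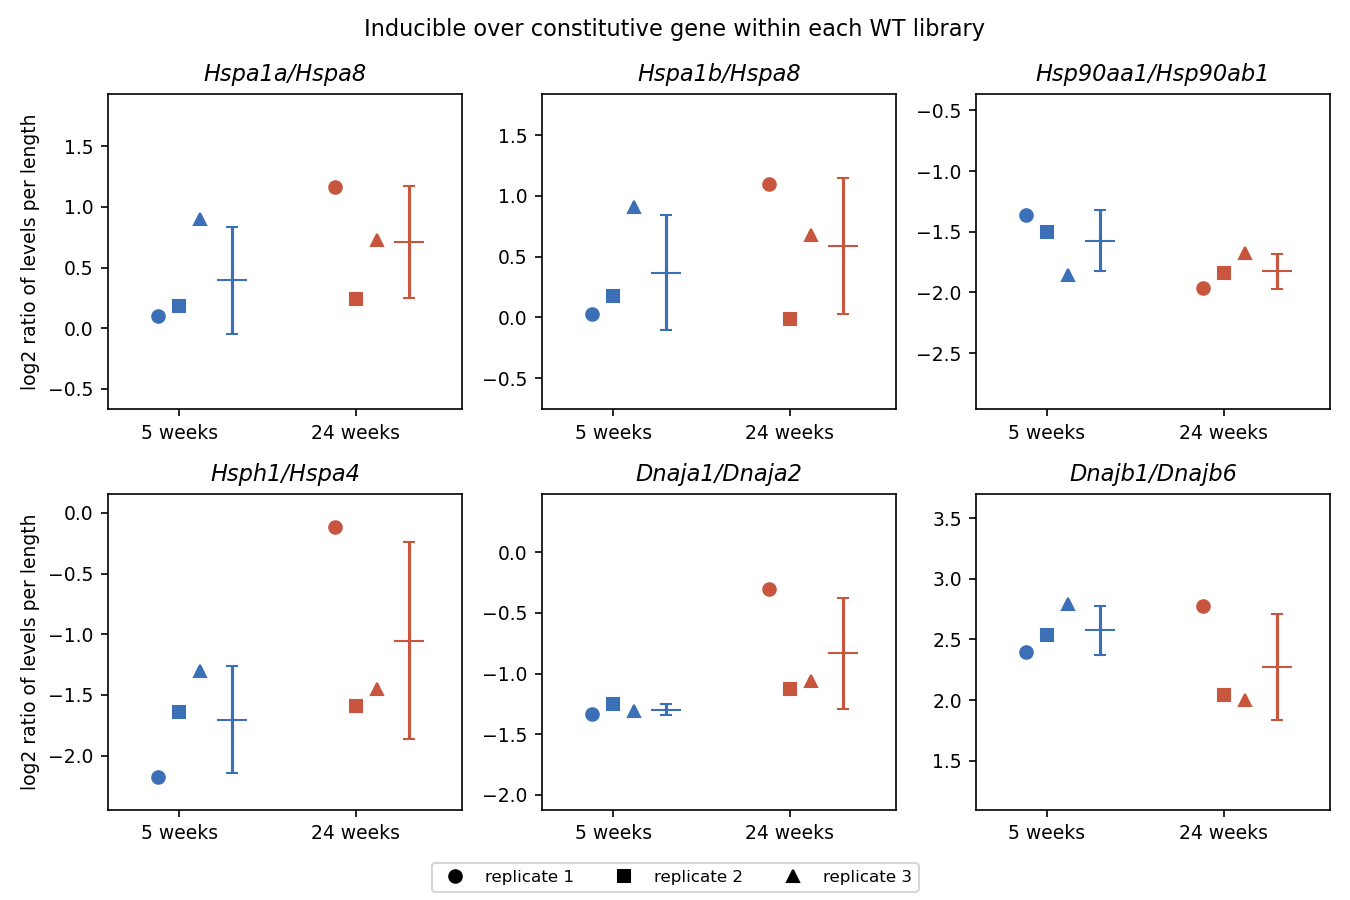
Log2 ratio of an inducible gene to its constitutive relative, each per kilobase of merged exons, in each library, with the mean and SD of 3 libraries per age beside the points. The vertical axes have different positions and the same span. The 24-week replicate 1 (red circle) has the highest ratio of its age in 5 of the 6 pairs and the lowest for Hsp90aa1 to Hsp90ab1.

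HSF1 binds heat shock elements, which are built of GAA units in alternating orientation. Promoter windows from RefSeq (GRCm38.p6), reaching from 250 bases before to 50 bases after a start site, were at hand for 41 of the 49 members. Windows were searched on both strands for elements of 2 units (GAANNTTC or TTCNNGAA, each its own reverse complement) and of 3 units (GAANNTTCNNGAA or TTCNNGAANNTTC, reverse complements of each other, which contain both forms with 2 units). The sequences below are shown because they place the element in inducible members and, for contrast, in constitutive and moderately inducible ones. Capitals mark the elements, and each sequence reads 5′ to 3′ along the strand of its gene. Stretches that lie in an annotated exon are given with a shorter flank. Only elements that lie wholly before the start are shown. Elements at or after it are therefore left out, among them those of Bag3 and Chordc1 and an element of 3 units in Hsph1.
Hspa1a, chr17:34972241-34972272, minus strand, between genes: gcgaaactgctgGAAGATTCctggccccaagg
Hspa1b, chr17:34959323-34959354, minus strand, between genes: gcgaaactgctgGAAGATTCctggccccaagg
Hspb1, chr5:135887790-135887841, plus strand, between genes: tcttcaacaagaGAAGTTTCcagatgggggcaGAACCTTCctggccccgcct
Dnajb4, chr3:152193846-152193871, minus strand, in an intron of Dnajb4: gttcgttcgctgTTCTAGAAagtaca
Dnaja1, chr4:40722338-40722357, plus strand, in an exon of Dnaja1: cctctaGAAAATTCtacgag
Hsph1, chr5:149636356-149636375, minus strand, in an exon of Hsph1: gaatctTTCTCGAAggctcg
Dnajb6, chr5:29735846-29735870, plus strand, in an exon of Dnajb6: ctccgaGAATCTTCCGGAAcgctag
Cdc37, chr9:21150085-21150116, minus strand, between genes: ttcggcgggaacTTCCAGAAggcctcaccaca
Hspe1, chr1:55088053-55088082, plus strand, in an exon of Hspd1: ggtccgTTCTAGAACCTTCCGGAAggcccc
Hspa1a and Hspa1b carry the same 32 bases and were the same at 247 of 250 bases before the start, beside their like pattern over the libraries. The stretch of Hspe1 also serves as that of Hspd1, which is read from the other strand.

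An element of 2 units lay in the windows of 8 of 9 inducible members (88.9%), 2 of 11 constitutive members (18.2%), 2 of 5 moderately inducible members and 3 of 16 without a class, beside 17% of the 27025 genes with a window. The exception among the inducible members was Dnajb1. An element of 3 units lay in 5 of 41 members (12.2%) and in 0.662% of all genes. The classes were named for induction by heat, so these shares describe the classes and were not tested. The 15 members with an element of 2 units counted 2 higher (Bag3 and Dnaja4), 1 lower (Fkbp4) and 12 that did not pass, with a median log2 fold change of -0.05. The 26 with a window and no such element counted 4 higher, 4 lower and 18 that did not pass, with a median of -0.13. Across all genes tested, 15.5% were higher and 13.3% were lower. The difference between members with and without an element was not tested. Hspa12a and Hspa12b, which rose, had no match in their windows. A match is a description of the letters and does not show binding.

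Of 72 further chaperone genes outside the members, 65 were tested, of which 5 were higher, 13 were lower and 47 did not pass, with a median log2 fold change of -0.11. Among all genes tested, 15.5% were higher and 13.3% were lower, and the list was not tested against them. Hspa5, the HSP70 protein of the ER lumen, had -0.24 (SE 0.18, adjusted p = 0.334) and Hsp90b1, the HSP90 protein there, had -0.01 (SE 0.17, adjusted p = 0.958). Among the higher genes were Sec63, a J protein of the ER translocon (0.56, SE 0.12, adjusted p = 0.00547), and Cryab, a small HSP (0.73, SE 0.17, adjusted p = 0.00829). Unc45b was also higher (3.97, SE 0.48, adjusted p = 0.000219). Its levels were low, at 0.046 to 0.263 CPM at 5 weeks and 2.26 to 3.18 CPM at 24 weeks. Among the lower ones were Nudc, a co-chaperone of HSP90 (-0.69, SE 0.11, adjusted p = 0.00113), Stub1, the ubiquitin ligase CHIP that works with HSP70 (-0.48, SE 0.10, adjusted p = 0.0059), and Fkbp8, a co-chaperone related to Fkbp4 (-0.60, SE 0.12, adjusted p = 0.00415).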

How the data were processed

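RNA-seq of CD11b-selected microglia from WT mice was analysed in 3 libraries at 5 weeks and 3 at 24 weeks. The deposited values are raw counts of read pairs per Ensembl gene. To make them, the authors used trim_galore on the strand-specific pairs, TopHat2 2.0.13 for alignment to GRCm38 and HTSeq 0.6.1 for counting uniquely placed pairs. Rows naming no gene (60.6% to 65.8% of all row counts) were left out. Among pairs that matched 1 gene, several or none, those matching none were 40% to 41.8% at 5 weeks and 48.7% to 54.9% at 24 weeks. These ranges did not overlap, and the part of this difference in the results was not tested. Depth limits the precision of the lowest members, such as Hspb11 with 17 to 97 counts.

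Symbols came from GENCODE M21 on GRCm38, which matched 37607 of 38924 identifiers. edgeR 4.0.16 in R 4.3.3 was run on all genes with TMM factors, the default filter on low counts by age, and age as the only term of a quasi-likelihood fit. SE was taken as the absolute log2 fold change over the square root of F. The code was tested on simulated data. Exact two-sided permutation tests were used for the pairs of genes, on counts plus 0.5. Alternatives were other scalings, DESeq2 1.42.0, limma-voom (limma 3.58.1), other filters, a replicate term, length and GC trends, and leaving out each library. All members could be named, and of the further chaperone genes some of those with the smallest p-values and, chosen after their values were seen, Hspa5 and Hsp90b1. The members, classes and lists were chosen with earlier results of these data known. No pair of libraries of one age agreed within sampling noise (chi-square per gene of 8.03 to 87.6).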

Additional observations from a re-analysis of the deposited data

How the results depend on the processing

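With total gene counts as the only scaling, 4 members were lower, the median over all members was -0.040 and that of the constitutive members -0.14, and over all genes 3229 were higher and 1466 lower, against 2505 and 2141 with TMM. With length and GC trends removed, 11 members were lower (Dnajc3, Hspa9, Dnajc5, Cdc37 and Hspa8 were added and Bag1 was lost), and over all genes 2403 were higher and 3223 lower. Leaving out 1 library gave 3 to 8 higher members, 1 to 12 lower members and a constitutive median of -0.28 to -0.20. Over all genes these fits gave 1638 to 3225 higher and 1181 to 2817 lower. No member that passed changed sign under any alternative, and Fkbp4, Dnajb12, Hspa13, Ahsa1, Bag3, Dnaja4, Hspa2, Hspa12a and Hspa12b passed under all 8 alternatives of scaling, test, filter, block and trend. Of these, Ahsa1, Bag3, Hspa12a and Hspa12b also passed in all 6 fits that left out 1 library. Hspa13, Dnaja4 and Hspa2 passed in 5 of these 6 fits, Fkbp4 in 3 and Dnajb12 in 1. The causes of these changes were not tested.

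The replicate numbers were not taken as pairs, since the libraries of each age came from different mice. The correlations of deviations of same-numbered libraries were 0.0656, 0.0888 and -0.0451, but with 3 libraries per age they cannot decide whether samples were paired. With the replicate number as a block, 6 members were higher and 7 lower, Bag5 was lost (adjusted p = 0.0552 by edgeR) and Hspa8 was gained (-0.50, adjusted p = 0.0441). Adding the 5 moderately inducible genes to the inducible class moved its median from 0.06 to -0.13 and added 1 lower gene (Ahsa1). With a pseudocount of 5 the differences of all 6 pairs kept their direction.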
